A study of Mus musculus with 40 samples.

Results

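Single-cell libraries of mouse testis that carried spermatid RNA were compared with libraries of late spermatocytes. Of the 40 libraries, 8 formed the spermatid-like side and 18 the late spermatocyte side, while 14 fell on neither side. Members were chosen from measured values, in CPM, the counts of a gene scaled to a fixed total per library. The spermatid-like side had at least 100 CPM of Acrv1, an acrosomal protein gene of spermatids, and under 1000 CPM of Clu, a Sertoli cell gene. The late side had under 100 CPM of Acrv1, under 1000 CPM of Clu and at least 400 CPM of Aurka, which encodes the Aurora A kinase of the meiotic spindle.

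All cells came from C57BL/6J mice aged 6 to 8 weeks, and the labels name no further allele. The labels divide them into 20 Pachytene and 20 Metaphase I libraries, and 4 libraries of each label were on the spermatid-like side and 9 of each on the late side. The protocol text, which is the same for all 40, describes cell fractions made by elutriation and entry into metaphase I driven by okadaic acid (4 µM, 5 h). That drug inhibits protein phosphatases, and the treated libraries can be told only by their name. Each library is 1 cell and no animal or culture is named, so each side counts as 1 sample. Since the cells were also sorted into sides by their expression, every expression value below is a description and no p-value is given. The labels name no spermatid, so the 8 are written by their labels, as "the library labelled Pachytene" or by label and replicate number.

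Meiosis in the male ends with divisions that yield haploid round spermatids. In the spermatocyte, cyclin-dependent kinase 1 with its cyclins, Aurora kinases and the spindle checkpoint drive the chromosomes onto the spindle, after the synaptonemal complex that paired them has come apart. In round spermatids the Golgi builds the acrosome, the sperm tail is laid down, and later histones are exchanged for transition proteins and protamines. Many transcripts for these steps are made early and stored, and the X and Y, silent in the spermatocyte, are partly read again after meiosis.

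Library totals ran from 198117 to 2325564 counts on the spermatid-like side (5994754 in all) and from 282915 to 2283438 on the late side (14528164 in all). Thinned to 190000 counts each, the spermatid-like libraries held 7278 to 10660 detected genes and the late libraries 7834 to 9522. Of the 8, 3 also passed the Aurka threshold of the late side, all labelled Metaphase I (replicates 7, 16 and 17), and these 3 are described last. Counts over all genes are given with and without them. The other 5 were 4 labelled Pachytene and 1 labelled Metaphase I, and the part of the label in this split was not tested. Library values of the spermatid-like side stand throughout in the order Pachytene replicates 2, 3, 7 and 19, then Metaphase I replicates 3, 7, 16 and 17. Coordinates are those of the deposited table, on GRCm38.

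Acrv1 (chr9:36693220-36698843) stood at 502, 451, 644, 730, 593, 252, 117 and 227 CPM in the 8 libraries. In the late libraries it ran from 0 to 23.0 CPM, with a median of 3.14. Aurka (chr2:172356190-172370535) stood at 87.1, 117, 147, 95.7, 126, 444, 904 and 462 CPM, against 426 to 862 CPM (median 647) in the late libraries. The library nearest above the Acrv1 threshold was Metaphase I replicate 16 (117 CPM). The nearest below was the library labelled Pachytene replicate 5, at 72.7 CPM of Acrv1 and 273 CPM of Aurka, and it was on neither side. Nearest to the Aurka threshold were Metaphase I replicate 4 (426 CPM), inside, and Metaphase I replicate 10 (319 CPM), outside. These values chose the sides.

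**Figure D1:**
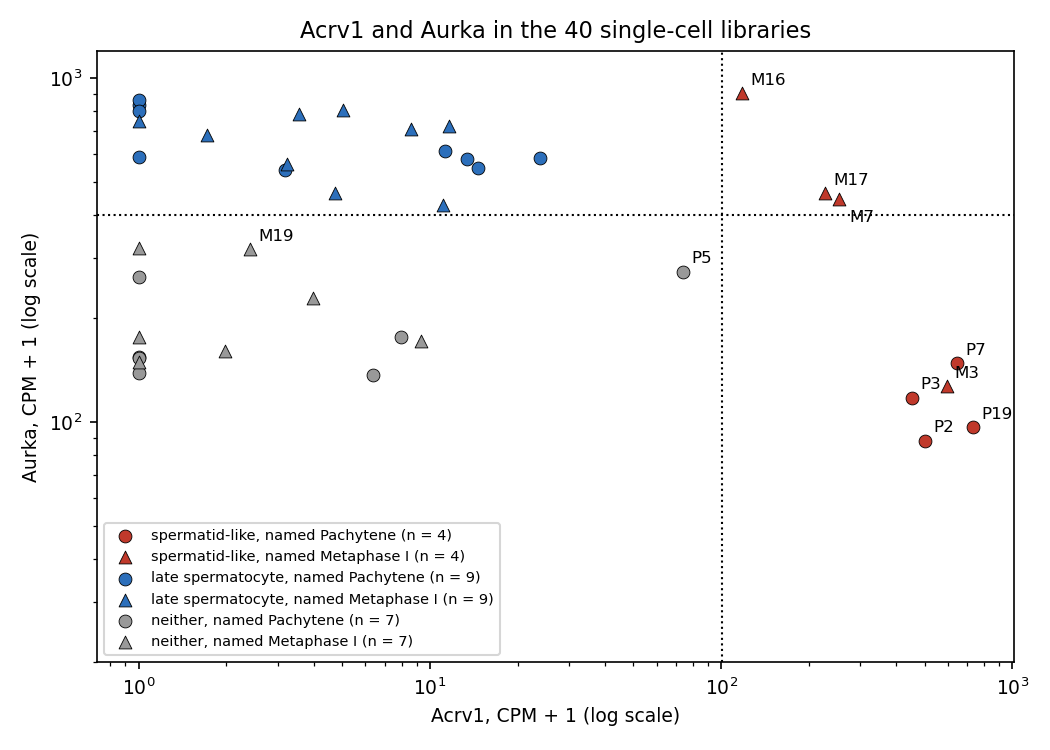
Acrv1 (x axis) against Aurka (y axis), both as CPM + 1 on log scales, in the 40 libraries, with dotted lines at the thresholds of 100 and 400 CPM; P and M with a number are the labels Pachytene and Metaphase I with the replicate. Of the spermatid-like libraries 5 lie at 147 CPM of Aurka or less, and M7, M16 and M17 lie above both thresholds.

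The other markers of spermatids followed Acrv1 in the 5 libraries low in Aurka and less so in the 3 high ones. Hmgb4, a chromatin protein of spermatids, stood at 723, 715, 934, 801, 598, 95.9, 70.4 and 12.8 CPM, against 0 to 36.9 CPM in late libraries. Odf1, of the outer dense fibres of the tail, stood at 202, 232, 225, 214, 153, 95.9, 8.80 and 53.1 CPM, against 0 to 11.4 CPM. Tnp1, a transition protein gene, stood at 220, 161, 138, 219, 159, 20.2, 14.7 and 9.16 CPM, against 0 to 54.3 CPM. For each of these genes the 5 libraries were above every late library, and at least 1 of the 3 was within the late range. X-linked Akap4, of the fibrous sheath, was at 241, 560, 383, 490, 207, 116, 49.9 and 75.1 CPM, all above the late range of 0 to 35.3 CPM. The summed CPM of the 5 markers was 1710 to 2454 in the 5 libraries, and 580, 261 and 377 in Metaphase I replicates 7, 16 and 17.

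The late side also held traces of these RNAs. Of the 18 late libraries, 14 had a count of at least 1 of the 5 markers, with a median sum of 7.06 CPM, and 3 had over 50 CPM. The highest sums were 118 CPM in Pachytene replicate 4 and 117 CPM in Pachytene replicate 1. The latter also held 224 CPM of Prm2 and 109 CPM of Prm1, protamine genes of elongating spermatids. Prm2 stood at 31.4, 12.1, 15.1, 35.9, 14.0, 0, 23.5 and 22.0 CPM in the 8, against a late median of 0. No spermatid-like library reached the Prm2 level of that late library. Without Pachytene replicate 1 the Prm2 ratio moved from within 1.5-fold to 3.56-fold higher on the spermatid-like side.

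Markers of somatic cell types were low on both sides. Of the Leydig list and of the peritubular, endothelial and blood list no member reached 100 summed counts. Their summed level was 0 to 20.2 and 0 to 11.0 CPM on the spermatid-like side, and 0 to 15.2 and 0 to 28.2 CPM on the late side. Of earlier germ cells, the spermatogonia list summed to 5.87 to 70.0 CPM on the spermatid-like and 4.34 to 44.3 CPM on the late side. Its member Gfra1 was higher (mean 25.8 against 4.62 CPM) and Id4 lower (3.12 against 10.5 CPM). The preleptotene to zygotene list, which includes Smc1b, was not low, at 404 to 622 CPM and 289 to 593 CPM. The Sertoli markers measured were Cst9 and Cst12, and both were over 2-fold higher on the spermatid-like side. Cst9 stood at 0, 0, 45.2, 0, 1.08, 0, 73.4 and 53.1 CPM and Cst12 at 0, 0, 44.7, 0, 0, 0, 2.93 and 9.16 CPM. Pachytene replicate 7 and Metaphase I replicates 16 and 17 were above every late library for both, and the other 5 held at most 1.08 CPM. Clu, the rule gene for Sertoli cells, was at 0 to 103 CPM, with 103 and 58.6 CPM in Metaphase I replicates 16 and 17. The part of such RNA in the results was not tested.

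Across 9518 autosomal genes with at least 100 counts over both sides, 2029 (21.3%) were 2-fold or more higher on the spermatid-like side and 1945 (20.4%) 2-fold or more lower. Within 1.5-fold were 3722 (39.1%). A log2 ratio here is that of the mean CPM of the 8 over the mean CPM of the 18, with 1 CPM added to each, and folds are on that scale. Its median over all genes was -0.23. All 8 libraries were above all 18 for 264 genes (2.77%), and below all 18 for 87 (0.914%). With the 5 libraries low in Aurka, 2041 of 9361 genes were higher (21.8%), 2862 lower (30.6%) and 2857 within 1.5-fold (30.5%). The groups then did not overlap for 1406 higher genes (15%) and 827 lower genes (8.83%), and the median was -0.39. Of the genes called on the 8 libraries, 1963 higher and 1840 lower ones were called the same way on the 5.

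Of the higher genes, 837 were 16-fold or more higher, while 4 genes were 16-fold or more lower. With the 5 libraries, 961 genes were 16-fold or more higher and 57 lower. Higher genes held 25.5 to 28.2% of all counts in the 5 libraries and 2.25 to 3.55% in the late libraries. Lower genes held 2.87 to 3.60% in the 5 and 12.6 to 15.9% in the late libraries. The largest class by counts was the kept one, with 51.3 to 53.8% in the 5 and 59.5 to 63.3% in the late libraries. Of the higher genes 31 had no count in any late library, and of the lower genes 17 had none in any of the 8. Scaling with TMM factors moved the median of all genes by 0.25 on the log2 scale, to 0.02, and the share of higher among the called genes from 51.1 to 61.1% (2290 higher, 1457 lower). Median-of-ratios factors moved the median by 0.10.

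The X and Y, which the autosomal comparison left out, stood apart. Of 141 measured X-linked genes 135 were 2-fold or more higher and none was lower, and all 6 measured Y-linked genes were higher. X-linked counts were 0.741, 1.19, 0.948, 1.08, 0.837, 0.470, 0.0921 and 0.490% of the total in the 8, against 0.0265 to 0.0914% in the late libraries. Metaphase I replicates 7 and 17 were thus between the 5 and the late libraries, and replicate 16 was next to the highest late library.

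Promoters differed between the classes in a feature that the rule did not use. The higher class here took the 1344 genes that were 2-fold higher on the 8 libraries and above every late library in the 5, and the lower class the 548 genes lower by the same measure. RefSeq promoters (GRCm38.p6) were matched by symbol for 1019 higher, 2770 kept and 440 lower genes. In the 250 bases before the start, higher genes had a median of 6 CG dinucleotides, against 17 in kept genes, 16 in lower genes and 16 in all 7181 matched measured genes. With 5 or fewer CG were 47.0% of the higher promoters, 10.8% of the kept, 9.09% of the lower and 17.3% of all. Below and above the median level of expression the share was 49.8 and 45.8% for higher genes and 13.3 and 8.99% for kept genes.

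The contrast in CG can be read from 2 higher and 2 lower genes, with CG in capitals in the 200 bases before the start, 5′ to 3′ on the gene's strand. They are Acrv1 (chr9:36693020-36693219, plus strand), Hmgb4 (chr4:128260896-128261095, minus strand), Aurka (chr2:172370571-172370770, minus strand) and Cdk1, the kinase of M phase entry (chr10:69352913-69353112, minus strand).
Acrv1: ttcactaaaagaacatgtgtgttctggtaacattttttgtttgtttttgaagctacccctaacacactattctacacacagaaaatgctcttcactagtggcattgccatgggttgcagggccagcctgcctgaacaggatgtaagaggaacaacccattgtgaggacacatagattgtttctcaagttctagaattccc
Hmgb4: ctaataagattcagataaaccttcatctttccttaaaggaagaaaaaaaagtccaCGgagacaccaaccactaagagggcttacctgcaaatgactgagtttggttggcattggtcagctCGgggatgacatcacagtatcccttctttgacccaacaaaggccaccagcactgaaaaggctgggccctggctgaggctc
Aurka: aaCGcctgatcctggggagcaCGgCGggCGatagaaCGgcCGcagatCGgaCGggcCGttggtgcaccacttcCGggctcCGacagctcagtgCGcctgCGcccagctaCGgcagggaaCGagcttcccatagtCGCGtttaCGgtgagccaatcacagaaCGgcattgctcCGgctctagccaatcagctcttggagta
Cdk1: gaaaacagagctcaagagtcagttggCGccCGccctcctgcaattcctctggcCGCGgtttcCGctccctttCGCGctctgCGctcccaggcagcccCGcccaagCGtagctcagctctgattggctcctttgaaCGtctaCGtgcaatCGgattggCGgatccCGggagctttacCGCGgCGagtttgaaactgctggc
These 200 bases hold 0 CG in Acrv1 and 2 in Hmgb4, against 20 in Aurka and 18 in Cdk1. Promoters of higher fibrous sheath and outer dense fibre genes had a median of 1 CG (11 matched), and those of higher acrosome genes a median of 4 (15 matched). Higher genes of the recombination list were unlike them, with a median of 22 (5 matched).

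The letters GTTGCCA, or TGGCAAC on the other strand, are a core motif of RFX factors, which bind promoters of cilia genes. They were found in 8.93% of higher promoters, 4.30% of kept, 2.95% of lower, 4.64% of all measured and 3.79% of all 20977 promoters matched. Among promoters with 5 or fewer CG the share was 11.5% of higher, 3.67% of kept, 7.5% of lower and 7.66% of all measured genes. For lower genes that was 3 of 40 promoters. Among promoters with more CG the share was 6.67, 4.37, 2.5 and 4.01%, in the same order. The cAMP response element TGACGTCA, in contrast, was in 2.94% of higher, 3.36% of kept and 2.95% of lower promoters. The higher genes Tmco5, Chd5 and Adgb show this motif, in capitals. Tmco5 (chr2:116878505-116878704, plus strand) is of the acrosome region, Chd5 (chr4:152338451-152338650, plus strand) is a chromatin remodeller of spermatids and Adgb (chr10:10472400-10472599, minus strand) is androglobin.
Tmco5: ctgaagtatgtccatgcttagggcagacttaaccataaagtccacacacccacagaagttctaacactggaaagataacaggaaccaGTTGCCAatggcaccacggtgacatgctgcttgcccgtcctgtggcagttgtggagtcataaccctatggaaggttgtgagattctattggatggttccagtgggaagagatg
Chd5: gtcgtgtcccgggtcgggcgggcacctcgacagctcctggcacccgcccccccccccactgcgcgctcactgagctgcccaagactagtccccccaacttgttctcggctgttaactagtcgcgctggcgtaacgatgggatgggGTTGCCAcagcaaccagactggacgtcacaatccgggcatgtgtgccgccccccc
Adgb: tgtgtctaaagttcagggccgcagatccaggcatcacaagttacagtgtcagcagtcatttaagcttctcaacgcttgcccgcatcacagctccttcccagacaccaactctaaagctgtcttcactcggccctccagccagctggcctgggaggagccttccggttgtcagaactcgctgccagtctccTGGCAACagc
The match begins 113 bases before the start in Tmco5, 55 in Chd5 and 10 in Adgb, where it reads on the other strand. A match describes the letters only.

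**Figure D2:**
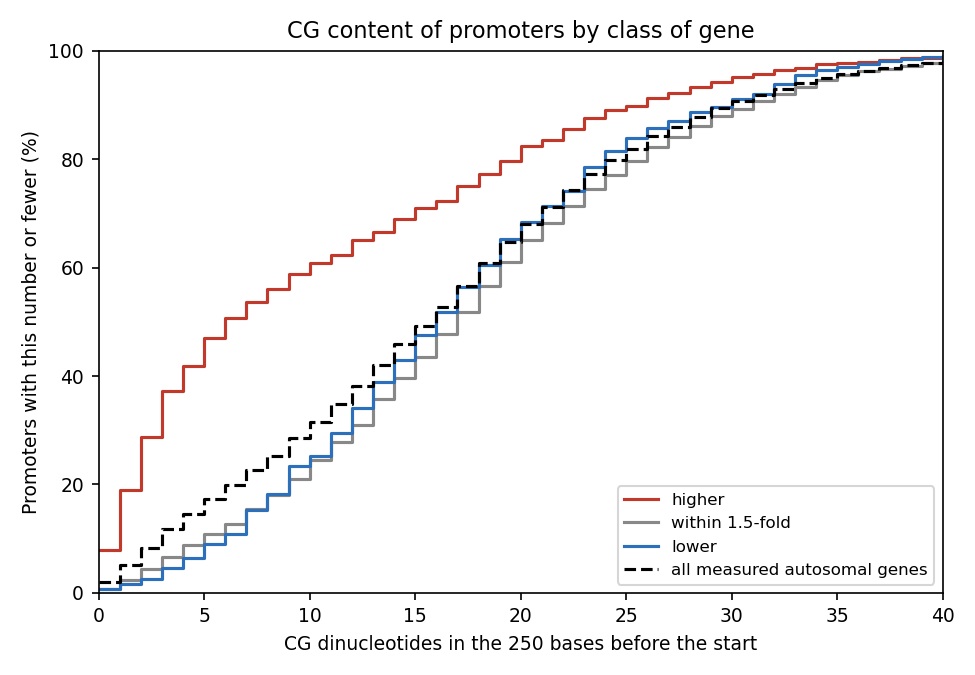
Cumulative share of promoters (y axis, %) by the number of CG dinucleotides in the 250 bases before the start (x axis), for higher, kept and lower genes and for all measured autosomal genes (dashed). At 5 CG the higher genes reach 47.0%, the kept 10.8% and the lower 9.09%.

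The genes with the highest ratios among those detected in all 8 and without overlap were Cxxc5, Cylc2, Ms4a14, Spata31, Prr30, Fam170b, Armh2, Izumo3, Csnka2ip, Adam24, Fam24a and Cldnd1. Cylc2 (chr4:51216678-51250622), a protein of the sperm head skeleton, stood at 736, 489, 428, 369, 492, 358, 61.6 and 194 CPM. Late libraries held 0 to 6.51 CPM of it (median 1.29), and its mean was 149-fold higher on the spermatid-like side. In summed counts it had 2532 (95% Poisson interval 2434 to 2633) against 22 (13.8 to 33.3), an interval that covers counting error only. Fam24a (chr7:131333864-131336927) stood at 978, 912, 613, 1089, 926, 505, 55.8 and 317 CPM, against 0 to 23.9 CPM. Izumo3, of the acrosome membrane, had the narrowest span of the 3, with 300, 411, 378, 226, 294, 182, 103 and 183 CPM against 0 to 6.51 CPM. In each of the 3 genes Metaphase I replicate 16 was the lowest of the 8. That the sides do not overlap in these genes follows from how they were chosen.

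**Figure D3:**
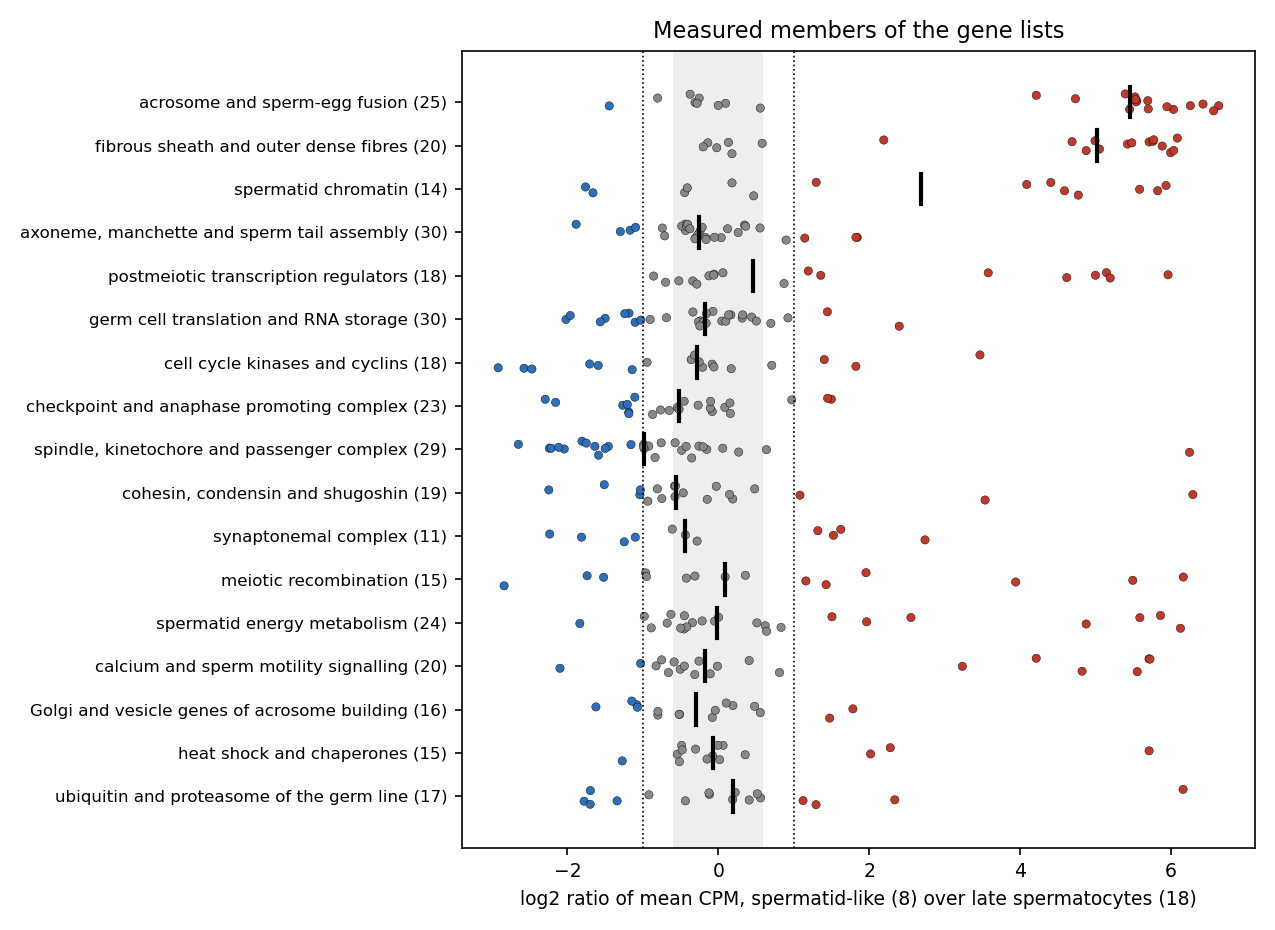
Log2 ratio (x axis) of each measured autosomal member of 17 gene lists, spermatid-like over late; the bar is the list's median, the grey band is 1.5-fold, dotted lines are 2-fold (red higher, blue lower, grey between), and the number of members is in parentheses. Acrosome and fibrous sheath genes have medians of 5.45 and 5.03 with a second group near 0, while spindle genes lie mostly to the left, with a median of -0.98.

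Acrosome and sperm-egg fusion genes fell into 2 groups. Of 25 measured members, 16 were higher, 1 lower and 7 within 1.5-fold, against 21.3, 20.4 and 39.1% of all genes. Their median log2 ratio was 5.45 against -0.23 for all genes. Acrv1, which defined the sides, is among the 16. Lyzl4, a lysozyme-like protein of the acrosome, stood at 333, 358, 283, 443, 282, 151, 5.87 and 104 CPM, against 0 to 6.31 CPM in late libraries. Spam1, the hyaluronidase of the sperm head, stood at 289, 139, 258, 251, 271, 70.7, 0 and 45.8 CPM, against 0 to 3.73 CPM. Lyzl4 overlaps genes on the opposite strand that held 100 counts or more, as do Hmgb4, Hils1, Cdk2, Sycp3, Zpbp, Vps13b, Rsph1, Piwil1, Bet1l and Elfn2. With no strand setting stated the reads of such pairs cannot be told apart, and for Vps13b the opposite strand held 22295 counts. In both genes Metaphase I replicate 16 was within the late range and the other 7 were above it. The kept members were Pdcl2, Zpbp2, Acrbp, Zpbp, Acr, Dpy19l2 and Pick1. Pdcl2, needed for the forming acrosome, stood at 1598, 1512, 1541, 1591, 1534, 1686, 1667 and 2026 CPM, against 1368 to 2000 CPM (median 1623). The sides overlapped for Pdcl2 with replicate 17 just above the late range, and its log2 ratio of -0.00 became 0.27 with TMM factors. Gopc, a Golgi protein of acrosome building, was the lower member, at 51.1 CPM on average in late libraries, 2.70 in the 5 and 60.5 in Metaphase I replicate 17. Of 16 Golgi and vesicle genes, 2 were higher (Vps13b and Stx2), 4 lower and 8 kept, against 21.3, 20.4 and 39.1% of all genes. Golga1, a golgin, stood at 1.74, 10.1, 19.4, 23.9, 1.08, 50.5, 161 and 128 CPM against 74.2 to 245 CPM, so that 6 of the 8 were below all late libraries and 2 within their range.

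Fibrous sheath and outer dense fibre genes had the same split, with 14 of 20 measured members higher, none lower and 6 kept (median 5.03). The shares of all genes were 21.3, 20.4 and 39.1%. Cabyr, a calcium-binding protein of the sheath, stood at 1039, 781, 858, 1089, 930, 323, 11.7 and 236 CPM, against 0 to 39.1 CPM. Tssk2 (chr16:17898637-17900024), a testis kinase of spermatids, stood at 647, 505, 467, 530, 502, 197, 35.2 and 110 CPM, against 0 to 15.9 CPM. The kept members were Ropn1l, Odf2, Tcp11, Spa17, Gk2 and Odf4. Odf2 stood at 1527, 1651, 1498, 1505, 1669, 1252, 1737 and 1607 CPM, against 1176 to 1646 CPM. Odf1, of the same fibres, was 31.9-fold higher.

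Of 30 axoneme and manchette genes 20 were within 1.5-fold, 3 higher and 4 lower (median -0.26), where 39.1% of all genes were kept. With the 5 libraries 13 were kept, 3 higher and 9 lower, where 30.5% of all genes were kept and 30.6% lower. Meig1, which recruits cargo to the manchette, stood at 5041, 4584, 4362, 5366, 5224, 4189, 4821 and 4262 CPM, within the late range of 4073 to 6286 CPM. The tektins, filament proteins of the tail, went 3 ways. Tekt2 stood at 945, 850, 581, 924, 889, 469, 23.5 and 427 CPM against 80.3 to 276 CPM, and 7 of the 8 were above all late libraries, while replicate 16 was below them. Tekt4 stood at 866, 872, 831, 731, 945, 762, 490 and 577 CPM against 155 to 555 CPM, with replicate 16 alone inside the late range. Tekt1 and Tekt3 were within 1.5-fold. Tekt5 stood at 8.71, 12.1, 6.88, 23.9, 26.9, 15.1, 41.1 and 40.3 CPM against 24.7 to 132 CPM, and was 3.69-fold lower. Among the lower members, Rsph1, of the radial spoke, stood at 987, 1041, 1016, 1193, 1135, 1908, 4275 and 2171 CPM against 3382 to 5150 CPM. The 5 libraries and replicates 7 and 17 were below all late libraries for Rsph1, and replicate 16 was inside their range.

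Of the spermatid chromatin genes, 8 of 14 were higher, 2 lower and 4 kept (median 2.69), against 21.3, 20.4 and 39.1% of all genes. Chd5 (chr4:152338651-152390194) stood at 97.6, 92.6, 17.2, 68.4, 64.6, 60.6, 26.4 and 18.3 CPM and had no count in any late library. Its 273 counts were at least 221-fold higher than the floor of 3 counts over the late side allows. Hils1, a linker histone of spermatids, stood at 1375, 1113, 925, 1323, 1263, 268, 26.4 and 227 CPM against 0 to 78.1 CPM. The kept members Brdt, Prm2, H1f6 and Prm1 include both protamine genes, and the levels of Prm2 are given above. Prm1 stood at 13.9, 18.1, 3.44, 1.71, 0, 15.1, 8.80 and 34.8 CPM in the 8. Its late mean was 8.39 CPM, which includes the 109 CPM of Pachytene replicate 1. For Tnp1, the fold of 17.0 became 28.7 without Pachytene replicate 1.

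Transcription regulators known from round spermatids were higher in 8 of 18 cases and lower in none (median 0.47), against 21.3 and 20.4% of all genes. Sox5 stood at 441, 409, 428, 591, 394, 121, 2.93 and 130 CPM against 0 to 13.9 CPM. Rfx1 stood at 145, 147, 106, 111, 94.7, 55.5, 0 and 67.8 CPM against 0 to 5.98 CPM, and its relative Rfx3 was higher as well (mean 36.6 against 2.15 CPM), whereas Rfx2 and Rfx4 were within 1.5-fold. Fhl5, a coactivator of CREM, stood at 268, 157, 181, 207, 295, 10.1, 0 and 18.3 CPM against 0 to 26.0 CPM, so the 5 were above the late libraries and the 3 were not. Its fold of 35.4 became 53.3 without Pachytene replicate 1. Among the 7 kept members were Tbpl1 and Gtf2a1l, parts of the germ cell's basal transcription machinery.

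Of 30 translation and RNA storage genes 16 were within 1.5-fold, 2 higher and 8 lower (median -0.18), against 39.1, 21.3 and 20.4% of all genes. Lower members numbered 4 with TMM factors. Pabpc1, the poly(A)-binding protein, stood at 3127, 4222, 3920, 3315, 3816, 4714, 4613 and 4919 CPM against 3663 to 7312 CPM. Cpeb2, a regulator of poly(A) tails, stood at 241, 324, 326, 311, 311, 338, 58.7 and 324 CPM against 30.0 to 153 CPM, and 7 of the 8 were above all late libraries. Piwil1, the MIWI protein of the piRNA pathway, stood at 41.8, 30.2, 15.9, 8.54, 12.9, 15.1, 55.8 and 53.1 CPM against 47.8 to 196 CPM. Meioc, which holds cells in the meiotic program, was also lower, at 27.9, 62.4, 46.9, 104, 45.2, 65.6, 99.8 and 75.1 CPM against 98.9 to 384 CPM. For Meioc and for Piwil1 alike, 6 of the 8 were below all late libraries.

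**Figure D4:**
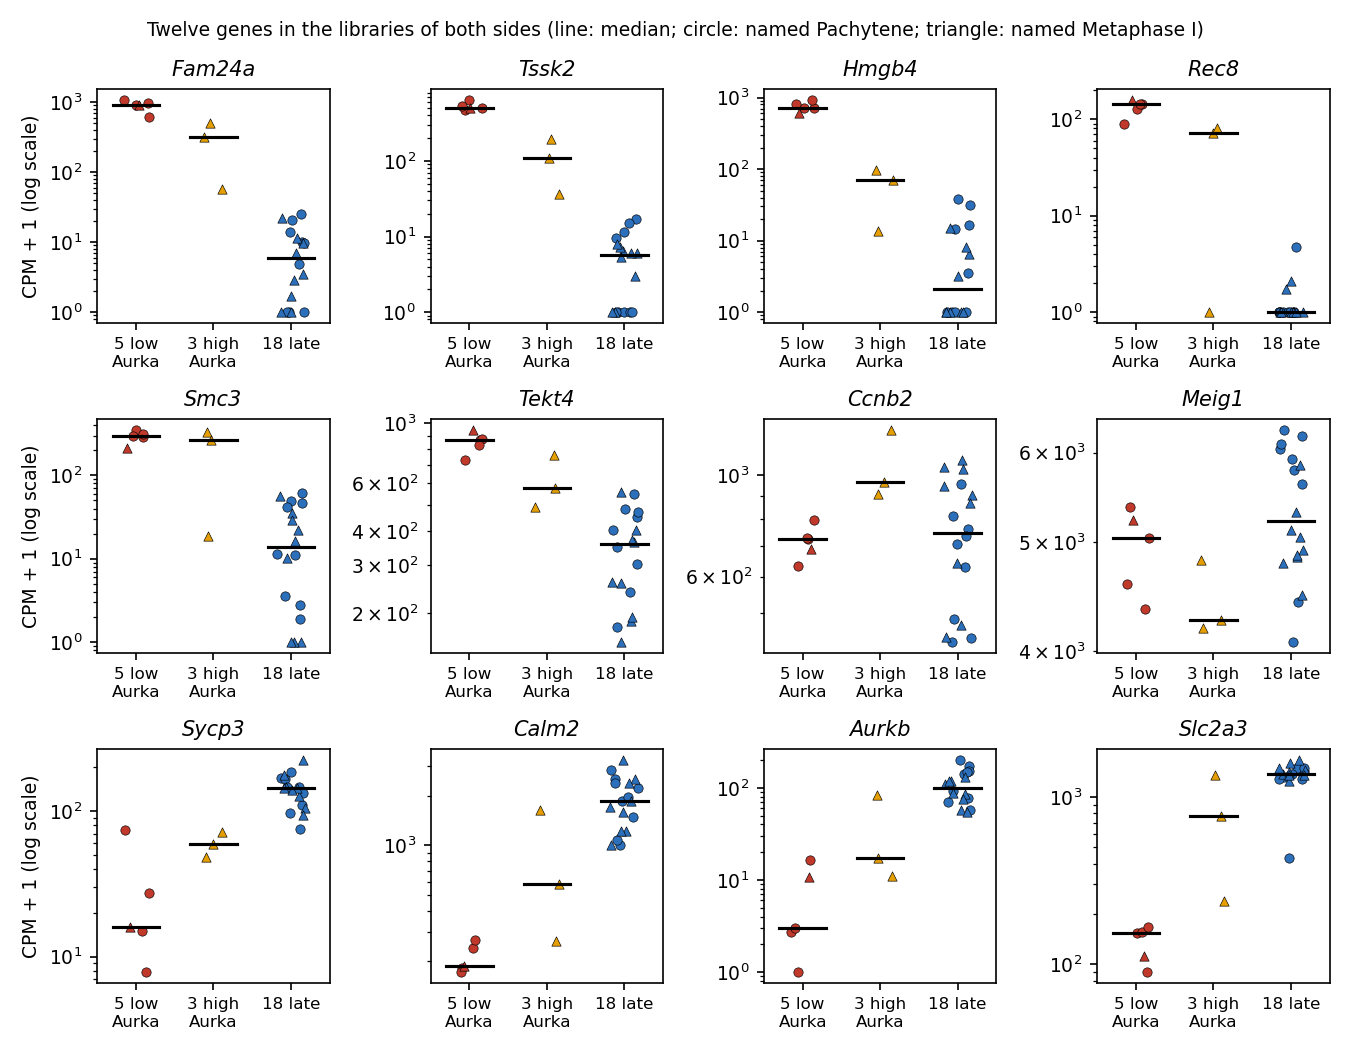
CPM + 1 (y axes, log scales) of 12 genes in the 5 spermatid-like libraries low in Aurka, the 3 high in Aurka and the 18 late libraries; points are libraries, lines are medians. For Smc3 2 of the 3 lie among the 5, for Hmgb4 all 3 lie below the 5, and for Meig1 and Ccnb2 the groups overlap.

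Of 18 measured kinase and cyclin genes of the meiotic divisions, 6 were lower, 3 higher and 7 kept (median -0.28). Over all genes 20.4% were lower, 21.3% higher and 39.1% kept, and the kept count was near that share. The lower members were Cdk2, Aurkb, Cks2, Tpx2, Cdk1 and Aurka, the last of which defined the late side. Cdk2, which acts in meiotic prophase, stood at 5.23, 4.03, 19.8, 0, 6.46, 5.05, 20.5 and 7.33 CPM against 10.6 to 152 CPM. Aurkb, the kinase of the passenger complex, stood at 1.74, 2.01, 0, 15.4, 9.69, 10.1, 82.2 and 16.5 CPM against 53.0 to 201 CPM. Its fold of 5.96 became 12.2 without Metaphase I replicate 16, which alone lay in the late range. Cks2, a CDK subunit, stood at 26.1, 52.3, 56.3, 47.8, 54.9, 45.4, 170 and 55.0 CPM against 46.0 to 719 CPM. The cyclin B genes and Polo kinase were kept. Ccnb1 stood at 183, 230, 245, 202, 255, 429, 329 and 326 CPM against 22.7 to 505 CPM. Ccnb2 stood at 798, 723, 631, 726, 688, 964, 1253 and 909 CPM against 431 to 1076 CPM, and Plk1 at 134, 173, 153, 137, 229, 167, 223 and 253 CPM against 65.5 to 347 CPM. Both cyclins and Plk1 overlapped between the sides. The direction of the small Ccnb1 and Plk1 ratios turned with TMM and with median-of-ratios factors. Bora, an activator of Aurora A and Polo kinase, was higher, at 81.9, 113, 79.1, 76.9, 81.8, 116, 82.2 and 101 CPM against 2.53 to 103 CPM, with 2 of the 8 above all late libraries.

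Checkpoint and anaphase promoting complex genes were higher in 2 of 23, lower in 7 and kept in 10 (median -0.52), and lower in 12 with the 5 libraries. Of all genes 20.4% were lower and 39.1% kept, and 30.6% were lower with the 5. Spindle, kinetochore and passenger complex genes were lower in 12 of 29, higher in 1 and kept in 9 (median -0.98), and lower in 20 with the 5. Fbxo43, the EMI2 inhibitor of the anaphase promoting complex, stood at 3.49, 0, 7.31, 10.3, 2.15, 15.1, 117 and 1.83 CPM against 17.7 to 192 CPM. Its fold of 4.46 became 13.7 without Metaphase I replicate 16. Ckap2, a spindle protein, stood at 0, 0, 0.430, 0, 1.08, 20.2, 2.93 and 1.83 CPM against 7.96 to 52.6 CPM, and its fold of 6.28 became 14.3 without Metaphase I replicate 7. Bub1, a checkpoint kinase, went the other way, at 152, 187, 247, 166, 217, 167, 2.93 and 220 CPM against 15.9 to 99.3 CPM, with replicate 16 below the late libraries and the other 7 above them. The higher spindle gene was Kif2b (chr11:91575315-91577558), a microtubule-depolymerising kinesin, at 758, 699, 670, 981, 748, 262, 23.5 and 258 CPM against 0 to 43.4 CPM.

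In the recombination list 6 of 15 were higher, 3 lower and 4 kept (median 0.09), and the counts were 2 higher and 3 lower when each library was thinned to 190000 counts. In the synaptonemal complex list 4 of 11 were higher and 4 lower, and in the cohesin, condensin and shugoshin list 3 of 19 were higher and 4 lower. Over all genes 21.3% were higher and 20.4% lower, and the cohesin list was near those shares. Rec8 (chr14:55618037-55625395), the meiotic cohesin subunit that holds sister chromatids, stood at 127, 143, 88.2, 144, 158, 70.7, 0 and 80.6 CPM. Late libraries held 0 to 3.71 CPM of it, with counts in 3 of 18, and its 638 counts (interval 589 to 690) on the spermatid-like side stood against 5 (1.62 to 11.7). Tex15 (chr8:33516738-33585582), needed for break repair and transposon silencing, stood at 228, 242, 237, 210, 185, 217, 5.87 and 78.8 CPM against 0 to 6.51 CPM. Smc3 (chr19:53600398-53645833), of the cohesin ring, stood at 286, 352, 299, 309, 214, 328, 17.6 and 266 CPM against 0 to 60.8 CPM. In these 3 genes Metaphase I replicate 16 was within the late range and the other 7 libraries were above it. No other gene of the table overlaps the span of Rec8, Tex15, Smc3 or Kif2b.

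Genes of the same complexes differed among themselves. The cohesin gene Rad21 was higher (mean 15.6 against 6.85 CPM). Smc1b, the meiotic cohesin subunit that joins Smc3, stood at 439, 580, 553, 576, 378, 560, 437 and 491 CPM against 253 to 514 CPM, and was within 1.5-fold (log2 0.48, or 0.77 with TMM factors). Of the synaptonemal complex, the central element gene Syce3 stood at 300, 244, 318, 282, 262, 192, 52.8 and 224 CPM against 35.9 to 137 CPM. Sycp3, of the lateral element, stood at 13.9, 26.2, 72.7, 6.84, 15.1, 70.7, 46.9 and 58.6 CPM against 74.2 to 224 CPM. All 8 were below all 18 for Sycp3, and 7 of the 8 were above all 18 for Syce3. In recombination, Brca1 was higher, at 22.7, 40.3, 31.0, 34.2, 17.2, 30.3, 0 and 18.3 CPM against 0 to 4.34 CPM. Mlh3, of the crossover resolving complex, was lower, at 0, 16.1, 0, 0, 0, 15.1, 123 and 23.8 CPM against 28.3 to 140 CPM. Without Metaphase I replicate 16 the fold of Mlh3 moved from 3.34 to 8.77.

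Of 24 measured energy genes 7 were higher, 1 lower and 9 kept (median -0.02), against 21.3, 20.4 and 39.1% of all genes. Ldhc (chr7:46861203-46878142), the testis lactate dehydrogenase, was among the most abundant kept genes, at 14346, 12536, 13812, 13604, 14521, 15420, 19023 and 15158 CPM against 16527 to 22045 CPM. The sides overlapped in Ldhc through replicate 16 alone, and the 5 were below all late libraries by less than 1.5-fold on average. Aldoart2, a testis aldolase retrogene, stood at 502, 487, 507, 436, 495, 187, 64.6 and 172 CPM against 0 to 26.0 CPM. Retrogenes resemble their parents, so their counts are uncertain. Slc2a3, the glucose transporter GLUT3, was the lower member, at 88.9, 153, 156, 166, 112, 237, 1341 and 770 CPM against 429 to 1667 CPM. Its fold of 3.57 became 5.61 without replicate 16.

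Among 20 calcium and motility genes 6 were higher, 2 lower and 7 kept (median -0.18), near the shares of all genes (21.3, 20.4 and 39.1%). CatSper is the calcium channel of the sperm tail. Its pore gene Catsper4 stood at 453, 278, 266, 126, 167, 156, 0 and 216 CPM against 0 to 19.5 CPM, and Catsper3 at 127, 64.4, 171, 179, 170, 30.3, 0 and 38.5 CPM against 0 to 5.60 CPM. Catsper1 was higher too (mean 91.8 against 0.975 CPM), and Catsper2, Catsperz and Catsperg1 were within 1.5-fold. Catsperd was 2.04-fold lower, and 1.90-, 1.91- and 1.98-fold lower without Pachytene replicate 2, Pachytene replicate 7 or Metaphase I replicate 12. The calmodulin genes also parted. Calm2 (chr17:87433412-87446935) stood at 181, 238, 170, 268, 186, 262, 1643 and 584 CPM against 1000 to 3294 CPM. Calm3 stood at 983, 787, 894, 895, 972, 893, 998 and 1022 CPM against 1064 to 1488 CPM. Calm3 thus lay below all late libraries in all 8 but by 1.37-fold, whereas Calm2 was 4.28-fold lower, or 7.00-fold without replicate 16.

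Of 15 chaperone genes 11 were kept, 3 higher and 1 lower (median -0.07), and 6 were kept with the 5 libraries. The ubiquitin list had 4 higher, 4 lower and 8 kept of 17 (median 0.19). Over all genes 21.3% were higher, 20.4% lower and 39.1% kept, and the ubiquitin list was near those shares. Dnajb13, a radial spoke chaperone, stood at 601, 604, 608, 540, 568, 394, 226 and 284 CPM against 60.1 to 154 CPM. Hspa5, the chaperone of the endoplasmic reticulum, stood at 74.9, 171, 199, 200, 188, 545, 625 and 573 CPM against 216 to 1469 CPM, with the 5 below and the 3 inside the late range. Klhl10, a ubiquitin ligase adaptor of spermatids, stood at 476, 560, 453, 398, 538, 247, 38.1 and 165 CPM against 0 to 13.0 CPM. Psma8, the proteasome subunit of spermatocytes, was lower, at 3.49, 18.1, 45.2, 53.0, 19.4, 90.9, 161 and 103 CPM against 113 to 291 CPM.

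The genes with the lowest ratios among those in every late library and without overlap were Slc35f6, Elfn2, Exph5, Luc7l3, Cyb5a, Hacd3, Il20rb, Bet1l, Pafah2, Ddx6, Gpn2 and Stk31. Slc35f6 (chr5:30647933-30659729), a transporter gene, stood at 1.74, 0, 0, 1.71, 0, 0, 5.87 and 1.83 CPM against 24.3 to 84.8 CPM (median 55.6). Its 5 counts (interval 1.62 to 11.7) stood against 767 (714 to 823). Exph5 had no count in any of the 8, against 2.84 to 29.7 CPM in all 18, and was at least 22.1-fold lower by the floor of 3 counts. Stk31, a testis kinase-like gene, stood at 10.5, 12.1, 34.8, 8.54, 26.9, 20.2, 2.93 and 23.8 CPM against 45.0 to 243 CPM. The most abundant kept genes, beside Ldhc, Meig1 and Pabpc1, were Asrgl1, Ubb, Ropn1l, Fhl4 and Rbakdn.

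The 3 libraries above both thresholds were placed between the sides by 2 gene sets defined on the other libraries. One held 942 genes that were 4-fold or more higher in the 5 libraries and at 50 CPM or more there. The other held 427 genes that were 4-fold or more lower and at 50 CPM or more in the late mean. A position of 0% is the late mean and of 100% the mean of the 5. Neither set used the 3 libraries, though Acrv1 and Aurka, which chose them, are members.

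Metaphase I replicate 7 had a median position of 44.4% over the rising genes (quartiles 24.0 and 71.7%) and 77.3% over the lost genes (56.1 and 93.0%). Replicate 17 had 31.8% (15.9 and 53.1%) and 65.5% (39.5 and 83.5%). Replicate 16 had -0.31% (-1.90 and 8.69%) and 19.7% (-26.7 and 56.3%). The medians of the 18 late libraries ran from -1.06 to 1.55% and from -9.46 to 20.1%, so that replicate 16 was inside the late range for both sets. Replicates 7 and 17 were outside the late range and outside the range of the 5 for both. In each of these libraries the median position was higher over the lost genes than over the rising genes.

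**Figure D5:**
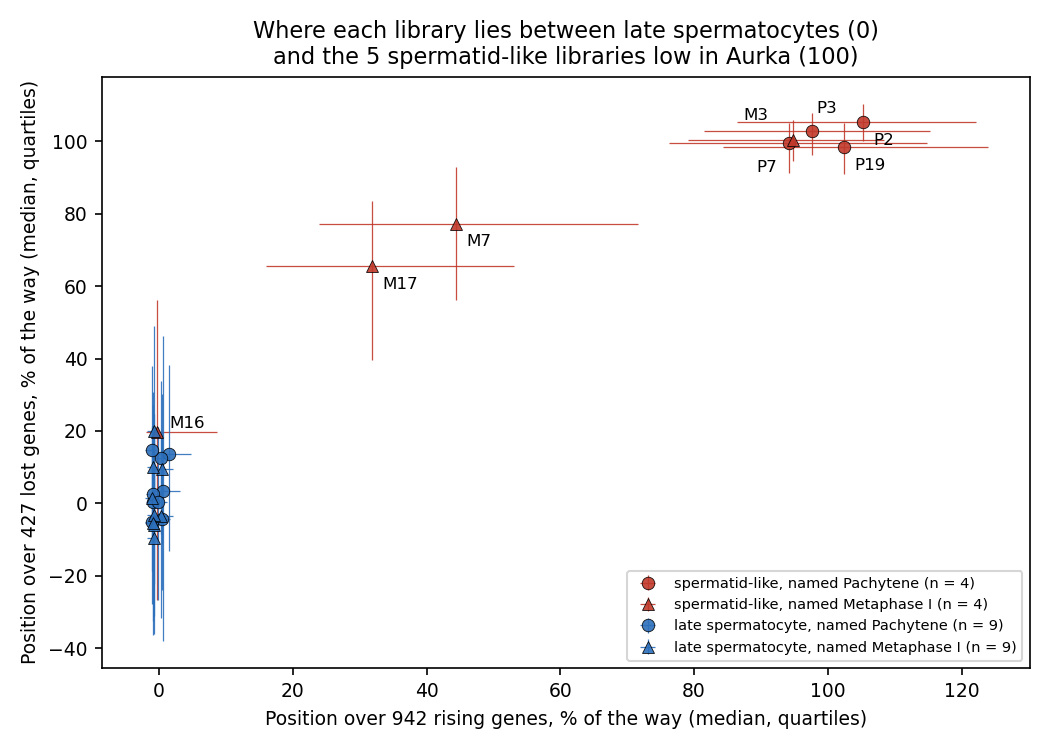
Median position of each of the 26 libraries over the 942 rising genes (x axis, %) and the 427 lost genes (y axis, %), with bars for the quartiles over genes; P and M with a number are label and replicate. M7 and M17 lie at 44.4 and 31.8% on x and at 77.3 and 65.5% on y, and M16 lies beside the late libraries.

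At 190000 counts for every library, the rising genes of replicate 7 spread from 5.58 to 102% between the 10th and 90th percentiles and those of replicate 17 from 0.942 to 80.7%. The same span was 42.8 to 158% in Pachytene replicate 7 and 54.3 to 172% in Pachytene replicate 19, the widest of the 5, and 48.6 to 140% in Metaphase I replicate 3, the narrowest. Under 20% were 22.1 and 31.2% of the rising genes in replicates 7 and 17, against 1.06 to 2.76% in the 5. The genes were chosen on the 5, which keeps their share low. With genes chosen without the library in question it was 0.968 to 3.62%, at full depth. Replicates 7 and 17 had lower medians (44.6 and 31.3%). In percentage points the span of replicate 7 lay within the range of the 5, and that of replicate 17 was narrower than all of them. The share of rising genes under 20% thus goes with lower positions. Over the lost genes at the same depth, the span was 25.9 to 102% in replicate 7 and 9.06 to 94.9% in replicate 17. It was 75.7 to 118% in Pachytene replicate 19, the widest of the 5, and 88.6 to 122% in Pachytene replicate 2, the narrowest. The lost genes were thus more widely spread in replicates 7 and 17, though they too were chosen on the 5. The cause was not tested. Over the 942 genes, positions in replicates 7 and 17 had a Spearman correlation of 0.62, a description in which both share the late mean and the mean of the 5 as end points. Whether each library held 1 cell was not tested, and no doublet caller was run.

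Positions of list members, named after they were seen, were spread within the lists. Among spermatid chromatin genes, Hmgb4 was at 11.9 and 0.769%, Tnp1 at 8.20 and 1.84%, Prm3 at 3.17 and 2.99% and H2bl1 at 9.02 and -0.45% in replicates 7 and 17. The counts were few, with 4 and 5 for Tnp1, 3 and 8 for Prm3 and 4 and 2 for H2bl1. Chd5, of the same list, was at 89.0 and 26.9% (12 and 10 counts), and the coactivator gene Fhl5 was at 3.23 and 6.99% (2 and 10 counts). Several head and tail genes had high positions, with the acrosome gene Spaca7 at 78.4 and 69.6% and the sheath gene Akap3 at 74.1 and 70.4%. Others of the same lists had low positions, with the fusion genes Tmem95 at 13.2 and 11.1% (3 and 7 counts) and Spaca6 at 6.40 and 15.2% (1 and 6 counts). Over the 16 rising acrosome genes the median was 47.2% in replicate 7 and 32.5% in replicate 17, beside 44.4 and 31.8% over all rising genes, and over the 7 chromatin genes it was 9.02 and 2.99%. Of the meiotic names, Smc3 was at 113 and 90.2%, Tex15 at 98.4 and 35.3% and Rec8 at 53.4 and 61.0%.

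Lost genes were spread as well. Cks2 was at 101 and 97.6% and Aurkb at 95.7 and 89.5% (2 and 9 counts) in replicates 7 and 17. Cdk2 was at 103 and 99.6%, from 1 and 4 counts. Aurka was at 39.4 and 36.2%, values limited by the rule, which singled out these libraries by at least 400 CPM of it. Hspa5 was at 38.3 and 33.7% and Tpx2, which activates Aurora A on the spindle, at 49.7 and 61.8%.

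Metaphase I replicate 16 held 40 counts of Acrv1. Its median positions were inside the late range, but other measures of the same genes were not. The summed level of the rising genes was 20543 CPM, against at most 15565 CPM in late libraries, and their upper quartile of position was 8.69%, against at most 4.85%. The upper quartile of the lost genes was 56.3%, against at most 49.0%. Y-linked counts were 0.00968% of its total, against at most 0.00239%. It was above the highest late library in Aurka (904 against 862 CPM), in Ccnb2 (1253 against 1076 CPM) and in Incenp, of the passenger complex (390 against 224 CPM). Of the 942 rising genes 53.1% were detected in it at 190000 counts, against 29.0 to 66.0% in late libraries and 92.0 to 100% in the other 7. It held 179 CPM of Tnp2, above the other 7 (0 to 40.3 CPM), and 73.4 CPM of Cst9 and 103 CPM of Clu. Without it, 2073 genes were higher, 2312 lower and 3354 within 1.5-fold. The part of RNA from other cells in this library was not tested.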

How the data were processed

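Single-cell transcriptomes of 40 mouse testis cells were made by a modified STRT-seq protocol, per the labels' protocols. The deposited values are raw counts per gene in 1 table of 55492 genes. The submitters' processing notes name UMI-tools, STAR, featureCounts and the GRCm38 build. The sources used here do not state whether molecular identifiers were collapsed, which strand setting was used or which versions were run.

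Counts were scaled to CPM with the total of each library. The log2 ratio of the mean CPM per library, with 1 CPM added, was computed for autosomal genes with at least 100 counts summed over both sides. A gene was called at 2-fold and kept within 1.5-fold. Sides did not overlap where the lowest library of one was above the highest of the other. With 1 sample a side no test was made. Count intervals are exact Poisson intervals (95%) and, like the floor of 3 counts, cover counting error only.

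The members and the gene lists were chosen with earlier results of these data known. Of 458 entries in 22 lists, 456 matched a symbol. Named genes were the 12 highest and 12 lowest ratios without overlap, the 8 most abundant kept genes, the markers and rule genes, and up to 3 higher, 3 lower and 2 kept members of each list. Other genes, such as Cdk1, Tmco5, Adgb, Incenp, Tnp2, Prm1, Rfx3, Catsper1, Rad21 and the list members named by position, were chosen after their values were seen. Some genes that the rule names are not reported here. Promoters came from RefSeq (GRCm38.p6) and were matched by symbol, with the motifs sought on both strands.

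Python 3.11.15, numpy 2.4.6, pandas 2.3.3, scipy 1.17.1 and matplotlib 3.10.9 were used, with R 4.3.3, edgeR 4.0.16 for TMM factors and DESeq2 1.42.0 for median-of-ratios factors. On simulated data for 9513 genes, all 50 genes in each class of 3- and 8-fold change were recovered and 2 of 9313 unchanged genes were called. The simulation held counting error alone, with no variation between cells, and changed only genes with counts well above the minimum. It checks the calculation and says nothing about how reliable the calls are in these cells. Alternatives were the scaling, the pseudocount, the count minimum, thinning, the thresholds, each label alone and leaving out each library. After seeing the data, 2 were added, the 5 libraries low in Aurka alone and the late side without its 3 libraries over 50 CPM of spermatid markers.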

Additional observations from a re-analysis of the deposited data

Results flagged for a closer look

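In each of 2 groups (the 8 spermatid-like libraries, and the 5 of them low in Aurka), 73 measures were searched for a library far from the rest. Of 146 checks 27 found one. The cut-off gives about 1 in 20 by chance for independent, normal values. These measures share the same libraries and some genes were picked after their values were seen, so that rate is no reference here. Metaphase I replicate 16 was the distant library in 13 of the 16 cases among the 8. It was high in Aurka (904 CPM), Rsph1 (4275 CPM), Aurkb (82.2 CPM), Cks2 (170 CPM), Fbxo43 (117 CPM), Mlh3 (123 CPM), Ldhc (19023 CPM), Calm2 (1643 CPM) and Slc35f6 (5.87 CPM). It was low in Cpeb2 (58.7 CPM), Bub1 (2.93 CPM), Smc3 (17.6 CPM) and in genes detected at 190000 counts (7278). The other cases were Pdcl2 in Metaphase I replicate 17 (2026 CPM), Ckap2 in Metaphase I replicate 7 (20.2 CPM) and the total of Pachytene replicate 7 (2325564 counts), which stood apart among the 5 as well.

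Within the 5 the distant values were spread over 4 libraries. Pachytene replicate 3 was low in Spam1 (139 CPM) and high in Bora (113 CPM) and Mlh3 (16.1 CPM), and Pachytene replicate 7 was low in Tekt2 (581 CPM). Pachytene replicate 19 was high in Sox5 (591 CPM) and Kif2b (981 CPM) and low in Aldoart2 (436 CPM). Pachytene replicate 2 was low in Cpeb2 (241 CPM), Cks2 (26.1 CPM) and Hspa5 (74.9 CPM).

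Signals also stood in libraries on neither side. Pachytene replicate 5 held 448 CPM of the 5 spermatid markers, against at most 118 CPM in late libraries. Metaphase I replicate 19 held 10454 CPM of Clu, against at most 28.0 CPM in late libraries.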

How the results depend on the processing

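The comparison has 1 sample a side, so counts of called genes describe these 26 libraries. With a pseudocount of 10 CPM 912 genes were lower. Without the count minimum 4709 were higher, 3244 lower and 10587 within 1.5-fold, and with a minimum of 500 counts 906, 981 and 2438, as the number of genes compared changed. Thinned to 190000 counts, 999 of 5924 genes were higher (16.9%) and 1158 lower (19.5%). With Metaphase I libraries alone 1050 of 6841 genes were higher (15.3%) and 917 lower (13.4%). Leaving out each library gave 1657 (without Pachytene replicate 7) to 2073 (without Metaphase I replicate 16) higher genes. Lower genes ran from 1820 (without Pachytene replicate 6) to 2312, and kept genes from 3354 (both without Metaphase I replicate 16) to 3853 (without Pachytene replicate 2). An Aurka threshold of 200 CPM turned the direction of 4930447C04Rik (log2 -0.089), and the cause was not tested. No library reached an Acrv1 threshold of 1000 CPM, so that alternative gave no value. TMM factors ended the call of Catsperd (log2 -0.80) and turned no called gene of the 68 examined. They turned the small ratios of Pdcl2, Meig1, Ccnb1 and Plk1. Of the lists, lower Golgi genes went from 4 to 1 and lower cohesin list genes from 4 to 2 with TMM factors. Lower cohesin list genes numbered 2 once Pachytene replicate 3 was left out and 7 once Metaphase I replicate 16 was, and higher recombination genes 4 without Pachytene replicate 7. No paired analysis was possible because no test was made and the numbers of the libraries tie no cells together.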

Other observations

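Gene types differed between the classes. Protein-coding genes made up 78.4% of the higher class, 85.4% of the kept class and 94.6% of the lower class. Over all measured genes it was 84.8%. Long noncoding gene models made up 18.5, 9.31 and 3.89%, against 11.3% of all measured genes. The median summed exon length was 2744 bases in higher, 3748 in kept, 4034 in lower and 3749 in all measured genes. The classes were those of the promoters, where higher and lower genes, unlike kept ones, had no overlap between the 5 and the late libraries.

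Among the 942 rising genes, some that belong to none of the lists were past the mean of the 5 libraries in Metaphase I replicate 7, replicate 17 or both. They were chosen after their positions were seen. Iqca was at 163 and 117% in replicates 7 and 17, and Slc6a6, the taurine transporter, at 117 and 107%. Adgb was past that mean in replicate 7 alone, at 260 and 64.9%.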
